A study of Mus musculus with 12 samples.

Results

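Polyunsaturated fatty acid elongation and activation was followed through 10 genes of mouse liver, namely 3 desaturases, 3 elongases and 4 acyl-CoA synthetases. They were found by symbol among 55401 genes of the deposited table, each with 1 identifier. All 10 were among the 19014 genes that passed a filter on low counts. By its title the series concerns hepatic LPCAT3 in alcoholic liver injury. Bulk polyA RNA was sequenced from livers of C57BL/6 mice that the labels give as male and 8 to 10 weeks old. LKO-ALD mice carried floxed Lpcat3 with cre (LPCAT3flox/flox-cre) and received the NIAAA diet, which models alcoholic liver injury, and FLOX-ALD mice carried the floxed alleles without cre (LPCAT3flox/flox) on that diet. LKO-NC and FLOX-NC mice had the same 2 genotypes with control feeding. All 4 groups therefore carried the floxed alleles. There were 3 libraries each in LKO-ALD, FLOX-ALD and FLOX-NC and 2 in LKO-NC. The promoter that drives cre and the exons it removes are not given in the labels, which also do not say whether replicates were separate animals. The p-values therefore measure the spread between these libraries, and how much of it is technical is not known. In FLOX-ALD, sex-linked genes (given below) set replicate 1 apart from the other replicates, so not all of these came from the same animal.

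Mammals cannot make polyunsaturated fatty acids from scratch and lengthen and desaturate dietary linoleic and alpha-linolenic acid in the endoplasmic reticulum, mostly in liver. FADS2 performs the first desaturation, ELOVL5 adds carbons to the product, FADS1 performs the next desaturation, which yields arachidonic acid, and ELOVL2 lengthens the longer chains on the way to docosahexaenoic acid. Acyl-CoA synthetases couple free fatty acids to coenzyme A, and LPCAT3 is one of the acyltransferases that place such activated chains into phospholipids. In liver, genes of the desaturases and of Elovl5 are known to respond to the transcription factors SREBP1 and PPARA.

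The desaturases lie side by side on chromosome 19 of mm10, within 155 kb. They are Fads3 (ENSMUSG00000024664, chr19:10041569-10060110, + strand), Fads2 (ENSMUSG00000024665, chr19:10062765-10101746, − strand) and Fads1 (ENSMUSG00000010663, chr19:10182888-10196877, + strand). The elongases are Elovl2 (ENSMUSG00000021364, chr13:41182381-41220405, − strand), Elovl3 (ENSMUSG00000038754, chr19:46131897-46135694, + strand) and Elovl5 (ENSMUSG00000032349, chr9:77917364-77984519, + strand). The synthetases are Acsl1 (ENSMUSG00000018796, chr8:46471037-46536051, + strand), Acsl3 (ENSMUSG00000032883, chr1:78657825-78707743, + strand), Acsl4 (ENSMUSG00000031278, chrX:142317993-142390535, − strand) and Acsl5 (ENSMUSG00000024981, chr19:55251938-55297720, + strand).

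RefSeq promoters (GRCm38.p6, the build of mm10) matched 8 of the 10 genes in 10 entries. The 250 bases before the start are shown for Elovl2, which passed the test for feeding. They are also shown for Elovl5, which had the largest edgeR genotype difference of the 10 on the NIAAA diet. An internal start of Acsl1 is shown as the only member window with an exact TCACNCCAC, a motif described next. These windows are printed 5′ to 3′ on the gene's strand. Capitals mark exact matches, on either strand, to CCAAT (the NF-Y box), CACGTG (an E-box) and TCACNCCAC (a sterol regulatory element).
Elovl2, chr13:41220404-41220653 (− strand): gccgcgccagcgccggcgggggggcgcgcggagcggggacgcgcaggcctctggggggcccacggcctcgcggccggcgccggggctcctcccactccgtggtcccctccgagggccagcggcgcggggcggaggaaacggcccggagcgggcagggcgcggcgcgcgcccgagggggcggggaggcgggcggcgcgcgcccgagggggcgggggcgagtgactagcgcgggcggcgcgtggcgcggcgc
Elovl5, chr9:77917115-77917364 (+ strand): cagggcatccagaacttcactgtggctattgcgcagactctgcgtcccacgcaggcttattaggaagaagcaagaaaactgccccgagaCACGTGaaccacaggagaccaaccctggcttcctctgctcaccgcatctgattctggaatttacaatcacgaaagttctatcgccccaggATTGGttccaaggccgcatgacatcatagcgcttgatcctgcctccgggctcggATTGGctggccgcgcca
Acsl1 internal start, chr8:46490716-46490965 (+ strand): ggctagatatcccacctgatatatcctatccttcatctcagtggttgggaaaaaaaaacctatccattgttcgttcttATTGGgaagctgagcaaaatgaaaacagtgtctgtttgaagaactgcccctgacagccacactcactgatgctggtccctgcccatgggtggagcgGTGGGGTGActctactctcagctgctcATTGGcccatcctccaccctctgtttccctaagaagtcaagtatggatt
The Elovl2 window holds 87.2% G and C, against a median of 52.4% over 32851 promoters, and has none of these letters. The Fads2 window, which is not shown, has none either, although Fads2 also passed the test for feeding. Of its 250 bases, 243 lie inside the gene span given above, so it says little on the bases upstream of that span. The Elovl5 window has CACGTG beginning 161 bases before the start and CCAAT, on the other strand, at 71 and 17 bases. The Acsl1 internal window has TCACNCCAC, on the other strand, at 76 bases and CCAAT at 172 and 49 bases. The transcript that starts there, ENSMUST00000110372, was assigned 0.651% of Acsl1 counts, with 3.8% in FLOX-NC replicate 1 and 0% to 0.153% elsewhere. The window upstream of the main Acsl1 transcript had no exact match. Among the other member windows, those of Acsl3, Fads3 and Acsl5 held CCAAT. No exact match was in that of Acsl4 or in the further Elovl2 entry. The Acsl5 window lies inside its gene span over all 250 bases, and the further Elovl2 window over 243. Of all promoters, 33.8% held CCAAT, 6.02% CACGTG and 1.05% TCACNCCAC on either strand. The direct repeats known as DR1, bound by PPARA with RXR, and DR4, bound by LXR with RXR, had no exact match in the member windows and were held by 0.0335% and 0.0152% of all promoters. The matches overlap none of each other, and they describe the letters in these windows only.

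Library totals ran from 39.1 to 73.6 in units of 1e6 estimated counts. Lpcat3, the targeted gene, stood at 9.80 to 15.4 CPM (counts per 1e6 after TMM scaling) in LKO-ALD libraries and 30.5 to 43.2 CPM in FLOX-ALD libraries, and at 29.2 and 37.2 CPM in LKO-NC and 87.1 to 103 CPM in FLOX-NC libraries. Cre libraries thus lay below floxed libraries on each feeding. One library went against its label for sex: FLOX-ALD replicate 1 showed Xist at 772 CPM, where no other library exceeded 2.95 CPM, and 0 counts over 4 Y-linked genes. Mitochondrial genes took 13.0% to 14.9% of counts in LKO-ALD, 13.1%, 22.3% and 26.4% in FLOX-ALD, 25.3% and 15.4% in LKO-NC and 12.1% to 13.0% in FLOX-NC. Summed levels of 9 hepatocyte markers were 89480 to 114700 CPM in LKO-ALD, 79490 to 158700 CPM in FLOX-ALD, 90900 and 142600 CPM in LKO-NC and 130700 to 137100 CPM in FLOX-NC, with none at 0. The part of these differences in the results below was not tested. In bulk liver, fewer cells of a type and less RNA per cell cannot be told apart.

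On the NIAAA diet most of these genes were lower than on control feeding. Averaged over both genotypes, Fads2 and Elovl2 fell, to about the same extent, and Acsl4 was the single member above 0. The fold changes were below 0 for 9 of the 10 genes in Cre mice and for the same 9 in floxed mice, where 50.1% and 44.9% of all tested genes were, and 27.6% were below 0 in both. In the average over genotypes 9 of 10 were below 0, against 47.3% of all genes. The median log2 fold change of the 10 was −0.98 in Cre mice and −1.15 in floxed mice, against −0.00 and 0.07 over all genes. By the edgeR quasi-likelihood test, adjusted over all genes at a threshold of 0.05, 2 of the 10 were called lower in the average over genotypes, where 4.61% of all genes were called and 2.41% were called lower. Within Cre mice 0 of 10 were called (background 0.957%), with 4 at an unadjusted p under 0.05 (background 19.5%) and 1 called by DESeq2 (background 9.47% of the genes to which it gave an adjusted p), which was Fads2 (adjusted p = 0.0496). Within floxed mice 0 of 10 were called (background 0.221%), with 4 at an unadjusted p under 0.05 (background 13.1%) and 1 called by DESeq2 (background 3.55%), which was Elovl5 (adjusted p = 0.0248). For the average 6 were at an unadjusted p under 0.05, against 22.7% of all genes, and DESeq2 called 5, where it called 13.1% of all genes, adding Fads3 (adjusted p = 0.00799), Elovl5 (0.014) and Acsl1 (0.0146). The Cre median was −0.32 without LKO-NC replicate 2, with 7 of 10 below 0, and the floxed median was −0.75 without FLOX-ALD replicate 3. Without LKO-NC replicate 2 the median of the average was −0.59, against −1.03 with all libraries.

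**Figure D1:**
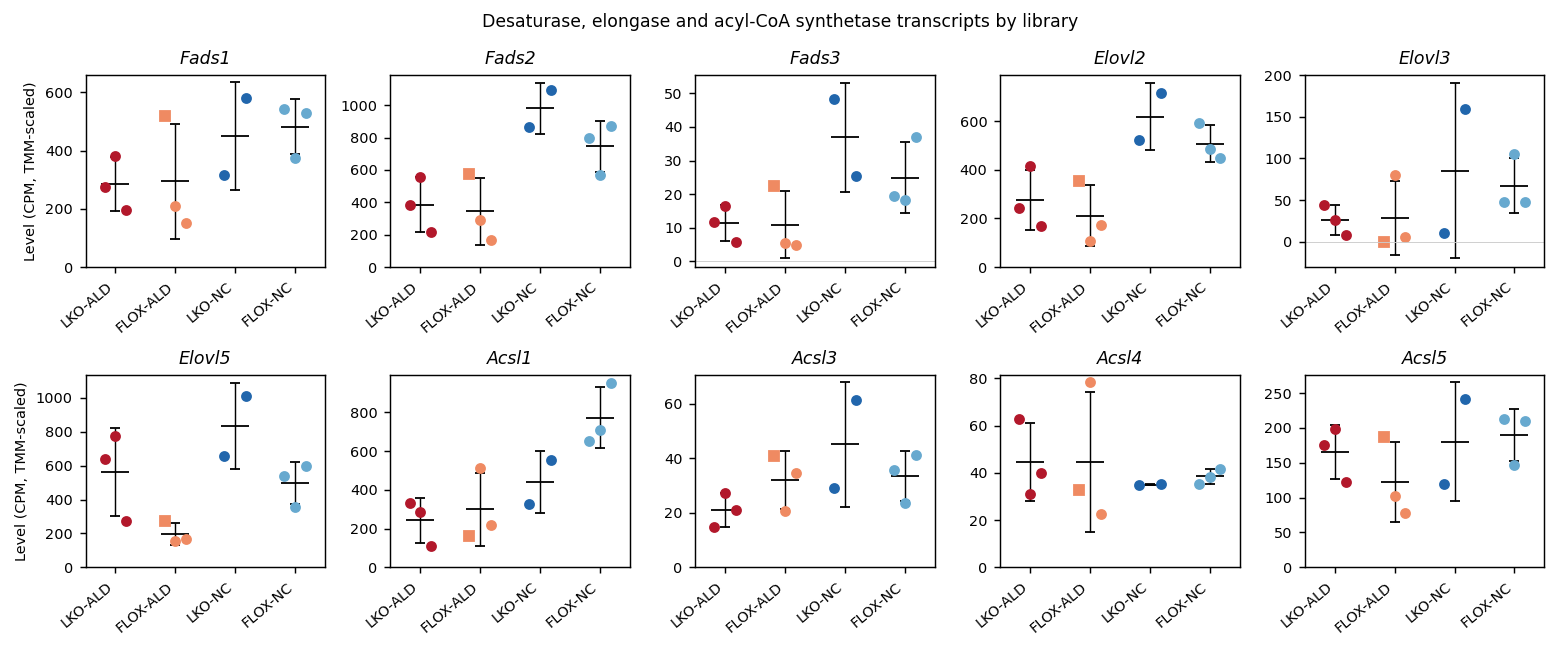
Level of the 10 genes by library, as TMM-scaled CPM on linear axes, with a panel per gene and groups from left to right LKO-ALD, FLOX-ALD, LKO-NC and FLOX-NC. Points are libraries (the square is FLOX-ALD replicate 1, which had Xist at 772 CPM), the long dash is the group mean and the bars are ± 1 SD, which reach below 0 for Elovl3. Elovl2 libraries on the NIAAA diet lie between 108 and 413 CPM, all below the control-fed libraries at 447 to 717 CPM.

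Fads2, the enzyme of the first desaturation step, was measured at 381, 559 and 218 CPM in LKO-ALD and 573, 290 and 168 CPM in FLOX-ALD livers, against 867 and 1093 CPM in LKO-NC and 796, 568 and 873 CPM in FLOX-NC livers. In Cre mice the diet and control libraries did not overlap, while in floxed mice FLOX-ALD replicate 1 lay just above the lowest FLOX-NC library. The mean was 386 ± 171 CPM in LKO-ALD (SD, n = 3) and 344 ± 208 CPM in FLOX-ALD (n = 3), against 980 ± 160 CPM in LKO-NC (n = 2) and 746 ± 159 CPM in FLOX-NC (n = 3). Averaged over genotypes it fell by 1.23 on the log2 scale (SE 0.322, edgeR adjusted p = 0.0493). The difference was −1.34 (SE 0.474) in Cre mice and −1.12 (SE 0.435) in floxed mice, and neither passed alone (edgeR adjusted p = 0.149 and 0.305). The call on the average held without FLOX-ALD replicate 1 (edgeR adjusted p = 0.0203) or LKO-ALD replicate 2 (0.0353) and was lost without any other single library (0.0521 to 0.126), with differences between −1.05 and −1.52 throughout.

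Fads1, which makes arachidonic acid, did not pass the test. Its libraries read 276, 382 and 198 CPM in LKO-ALD and 520, 210 and 152 CPM in FLOX-ALD, against 318 and 580 CPM in LKO-NC and 542, 373 and 530 CPM in FLOX-NC. Diet and control libraries overlapped in both genotypes. The average difference was −0.68 (SE 0.32, edgeR adjusted p = 0.226), and it passed without FLOX-ALD replicate 1 (adjusted p = 0.0485), the library with Xist. Fads3, which places a double bond in sphingoid bases and not in polyunsaturated fatty acids, was the least abundant of the 3 per length (FPKM). It stood at 11.7, 16.5 and 5.82 CPM in LKO-ALD and 22.5, 5.51 and 4.84 CPM in FLOX-ALD livers, against 48.2 and 25.5 CPM in LKO-NC and 19.4, 18.3 and 37.1 CPM in FLOX-NC livers. The libraries of Cre mice did not overlap between feedings. Its average difference was −1.44 (SE 0.463, edgeR adjusted p = 0.103), with an adjusted p of 0.0117 without FLOX-ALD replicate 1. A retained-intron transcript was assigned 32.4% of Fads3 counts, from 0% in FLOX-ALD replicate 3 to 57.3% in LKO-NC replicate 1.

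Within the desaturase family, Fads2 held a lower share in each library on the NIAAA diet than in each control-fed library, by a narrow margin, while the shares of Fads1 and Fads3 overlapped. Fads2 made up 54.0% to 60.2% of the summed FPKM of the 3 genes in LKO-ALD and 53.1% to 59.5% in FLOX-ALD libraries, against 66.1% and 70.9% in LKO-NC and 60.5% to 62.2% in FLOX-NC libraries. The nearest libraries were at 60.2% on the diet and 60.5% on control feeding. Fads1 took 37.7% to 45.6% of the family on the NIAAA diet, against 23.8% to 37.8% on control feeding. FPKM divides counts by transcript length, so it allows levels to be set beside each other between genes. These shares were computed after the levels had been seen and carry no test.

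Elovl2, which lengthens chains on the way to docosahexaenoic acid, was the other gene called lower. It was measured at 244, 413 and 169 CPM in LKO-ALD and 352, 108 and 173 CPM in FLOX-ALD livers, against 520 and 717 CPM in LKO-NC and 591, 484 and 447 CPM in FLOX-NC livers. It was the only member whose libraries did not overlap between feedings in either genotype, a pattern that 3.8% of all genes showed in the lower direction. The mean was 275.5 ± 125 CPM in LKO-ALD (SD, n = 3) and 211 ± 126 CPM in FLOX-ALD (n = 3), against 619 ± 139 CPM in LKO-NC (n = 2) and 508 ± 74.7 CPM in FLOX-NC (n = 3). Averaged over genotypes it fell by 1.22 on the log2 scale (SE 0.309, edgeR adjusted p = 0.0451), with −1.17 (SE 0.455) in Cre mice and −1.27 (SE 0.419) in floxed mice. The interaction was 0.10 (95% interval −1.25 to 1.44, edgeR adjusted p = 0.973). The call held without FLOX-ALD replicate 1 (edgeR adjusted p = 0.0153), FLOX-ALD replicate 2 (0.0463) or LKO-ALD replicate 2 (0.0255) and was lost without any other single library (0.0668 to 0.125), with differences between −1.07 and −1.51. The transcripts ENSMUST00000021793 and ENSMUST00000117096 were assigned 88.1% and 11.9% of its counts, and the second ranged from 0% to 45.4% over libraries.

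Elovl5, which lengthens the shorter polyunsaturated chains, had the largest genotype difference of the 10 genes on the NIAAA diet in the edgeR fit, while on FPKM that of Elovl3 was larger (1.85). Its libraries were at 638, 776 and 271 CPM in LKO-ALD and 274, 154 and 168 CPM in FLOX-ALD, against 655 and 1014 CPM in LKO-NC and 540, 357 and 598 CPM in FLOX-NC. On control feeding both Cre libraries lay above every floxed library. On the NIAAA diet 2 of the 3 Cre libraries did, while LKO-ALD replicate 3 lay just below FLOX-ALD replicate 1. The diet difference was −0.57 (SE 0.427, edgeR adjusted p = 0.499) in Cre mice and −1.33 (SE 0.392, edgeR adjusted p = 0.196) in floxed mice, and −0.95 (SE 0.288, edgeR adjusted p = 0.0766) in the average.

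The Cre minus floxed difference of Elovl5 was 1.50 (SE 0.394, 95% interval 0.65 to 2.36) on the NIAAA diet and 0.74 (SE 0.426, 95% interval −0.18 to 1.67) on control feeding. The unadjusted p was 0.00232 and 0.105, and after adjustment over all genes edgeR called neither (adjusted p = 0.42 and 0.809). DESeq2 called the difference on the diet (adjusted p = 0.0263) and the average over feedings of 1.12 (edgeR adjusted p = 0.548, DESeq2 adjusted p = 0.0428). The difference on the diet was 1.20 to 1.86 without single libraries and was not called by edgeR in any of these fits (adjusted p = 0.244 to 0.93), and without FLOX-ALD replicate 1 it was 1.81. The interaction was 0.76 (SE 0.583, edgeR adjusted p = 0.696), so a larger genotype difference on the diet was not shown. Within the elongases, Elovl5 made up 66.8% to 72.5% of summed FPKM in LKO-ALD, against 43.8% to 55.9% in FLOX-ALD libraries. In control-fed mice the shares were 57.0% and 62.5% in LKO-NC and 41.3% to 60.1% in FLOX-NC libraries. These shares carry no test.

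Elovl3, which lengthens saturated and monounsaturated chains, had the widest spread of the 10, at 578-fold between its highest and lowest library. In mice it is known to be higher in male liver and to follow the time of day. Its libraries were at 43.8, 26.3 and 7.74 CPM in LKO-ALD and 0.28, 79.8 and 5.28 CPM in FLOX-ALD, against 11.02 and 160 CPM in LKO-NC and 48.2, 106 and 48.1 CPM in FLOX-NC. FLOX-ALD replicate 1, at 0.28 CPM, had 18 counts of Elovl3. The average feeding difference was −1.48 (SE 1.234, 95% interval −4.36 to 1.40, edgeR adjusted p = 0.533) with that library and −1.18 (edgeR adjusted p = 0.531) without it. It was −3.18 without FLOX-ALD replicate 2 and 0.002 without LKO-NC replicate 2, so its size and direction rest on single libraries.

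Other genes that differ between male and female mouse liver were set beside Elovl3. The library with the lowest Elovl3 also stood apart in them, while the remaining libraries did not keep the order of Elovl3. The summed level of 15 male-biased genes was 429 CPM in FLOX-ALD replicate 1, and 4098 and 7946 CPM in the other FLOX-ALD libraries. It was 3361 to 10040 CPM in LKO-ALD, 4320 and 14620 CPM in LKO-NC and 20030 to 25010 CPM in FLOX-NC. The sum of 16 female-biased genes was 8827 CPM in FLOX-ALD replicate 1 and 17.3 to 218 CPM elsewhere. LKO-NC replicate 1, the control-fed library with the lowest Elovl3, also had the lowest male-biased sum of that feeding and the highest mitochondrial share, at 25.3%. Of the 15 male-biased genes 1 was called lower on the diet on average, Ugt2b38 (−2.77, SE 0.545, edgeR adjusted p = 0.0252). In that average 13 of the 15 were below 0, with a median of −0.97. All 15 were below 0 in floxed mice, FLOX-ALD replicate 1 included (median −1.89), and 7 of 15 in Cre mice (median 0.02). Of 16 core clock genes 0 were called, with a median of −0.29 against 0.04 over all genes. The part of sex, feeding and collection time in the Elovl3 values was not tested.

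**Figure D2:**
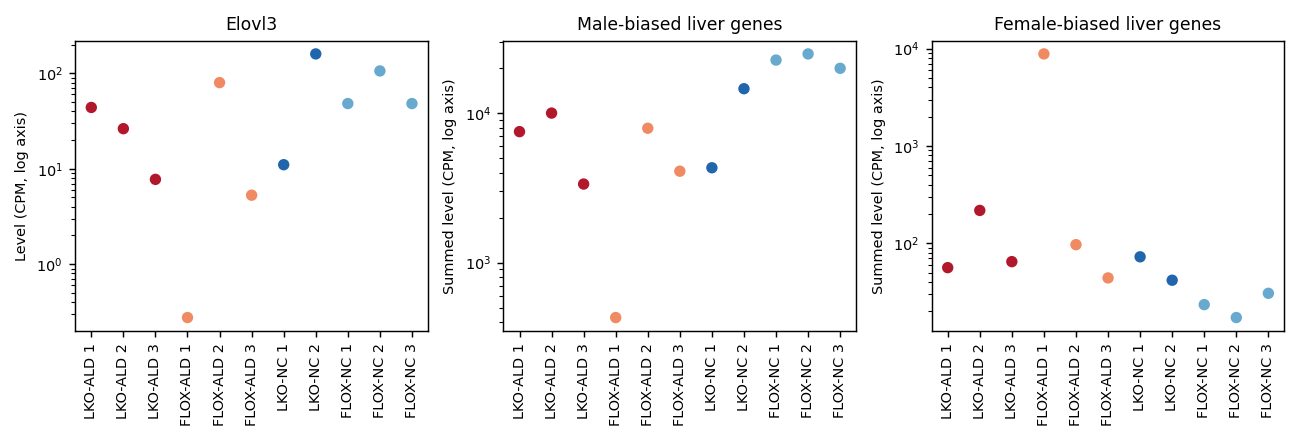
Level of Elovl3, of 15 male-biased and of 16 female-biased liver genes (summed) in each library, as CPM on log axes, with colour by group. FLOX-ALD replicate 1 has the lowest Elovl3 at 0.28 CPM, the lowest male-biased sum at 429 CPM and the highest female-biased sum at 8827 CPM.

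Acsl1, the main long-chain synthetase of liver, was lower on the diet without passing the test. It was measured at 332, 286 and 111 CPM in LKO-ALD and 164, 514 and 218 CPM in FLOX-ALD livers, against 326 and 553 CPM in LKO-NC and 654, 711 and 952 CPM in FLOX-NC livers. In floxed mice diet and control libraries did not overlap, and on control feeding both Cre libraries lay below every floxed library. The feeding difference was −0.85 (SE 0.511) in Cre mice, −1.37 (SE 0.471) in floxed mice and −1.11 (SE 0.346) in the average, with edgeR adjusted p = 0.384, 0.256 and 0.0829 in this order. The average passed without FLOX-ALD replicate 2 (edgeR adjusted p = 0.0215). The genotype difference on control feeding was −0.81 (SE 0.53, edgeR adjusted p = 0.825).

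Acsl3, a synthetase of lipid droplets and the endoplasmic reticulum, read 14.7, 27.0 and 21.0 CPM in LKO-ALD and 40.9, 20.5 and 34.6 CPM in FLOX-ALD, against 28.9 and 61.2 CPM in LKO-NC and 35.7, 23.5 and 41.1 CPM in FLOX-NC. Cre libraries did not overlap between feedings, and floxed libraries did. The feeding difference was −1.11 (SE 0.379) in Cre mice and −0.06 (SE 0.343) in floxed mice, with edgeR adjusted p = 0.14 and 0.965. The interaction was −1.04 (SE 0.513, 95% interval −2.16 to 0.07, edgeR adjusted p = 0.555), so the feedings were not shown to act differently by genotype.

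Acsl4, which prefers arachidonic acid and whose product chains are substrates of lipid peroxidation in ferroptosis, was at 62.8, 31.0 and 39.7 CPM in LKO-ALD and 32.6, 78.3 and 22.7 CPM in FLOX-ALD livers, against 35.0 and 35.1 CPM in LKO-NC and 35.4, 38.4 and 41.7 CPM in FLOX-NC livers. The control-fed libraries lay close together and the diet libraries on both sides of them. The average feeding difference was 0.28 (SE 0.292, 95% interval −0.36 to 0.92, edgeR adjusted p = 0.622), and it was −0.08 without FLOX-ALD replicate 2. Its transcript ENSMUST00000112903 was assigned 78.3% of Acsl4 counts in FLOX-ALD replicate 1 and 0% to 33.4% elsewhere. Acsl5, a synthetase of the endoplasmic reticulum and mitochondria, ranged from 123 to 199 CPM in LKO-ALD and from 77.4 to 187 CPM in FLOX-ALD, against 120 and 241 CPM in LKO-NC and 146 to 212 CPM in FLOX-NC. All its groups overlapped, with an average feeding difference of −0.38 (SE 0.264, 95% interval −0.95 to 0.20, edgeR adjusted p = 0.432).

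The make-up of the synthetase family, as shares of summed FPKM, varied with Acsl1. Acsl1 held 51.3% ± 10.2 in LKO-ALD (SD, n = 3) and 59.0% ± 17.1 in FLOX-ALD (n = 3), against 64.8% ± 1.06 in LKO-NC (n = 2) and 76.2% ± 3.87 in FLOX-NC (n = 3). Acsl4 held 4.6% to 11.2% in LKO-ALD and 5.41% to 8.86% in FLOX-ALD libraries, against 3.15% and 5.5% in LKO-NC and 2.6% to 3.23% in FLOX-NC libraries. In floxed mice the Acsl4 shares did not overlap between feedings, while its own level did. In FLOX-NC, mean levels per length ran from Fads2 at 196.5 FPKM and Acsl1 at 170 FPKM over Elovl5 at 149 FPKM, Fads1 at 116 FPKM and Elovl2 at 110 FPKM to Acsl5 at 38.9 FPKM and Elovl3 at 30.2 FPKM, and Fads3, Acsl3 and Acsl4 lay between 6.44 and 7.53 FPKM.

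**Figure D3:**
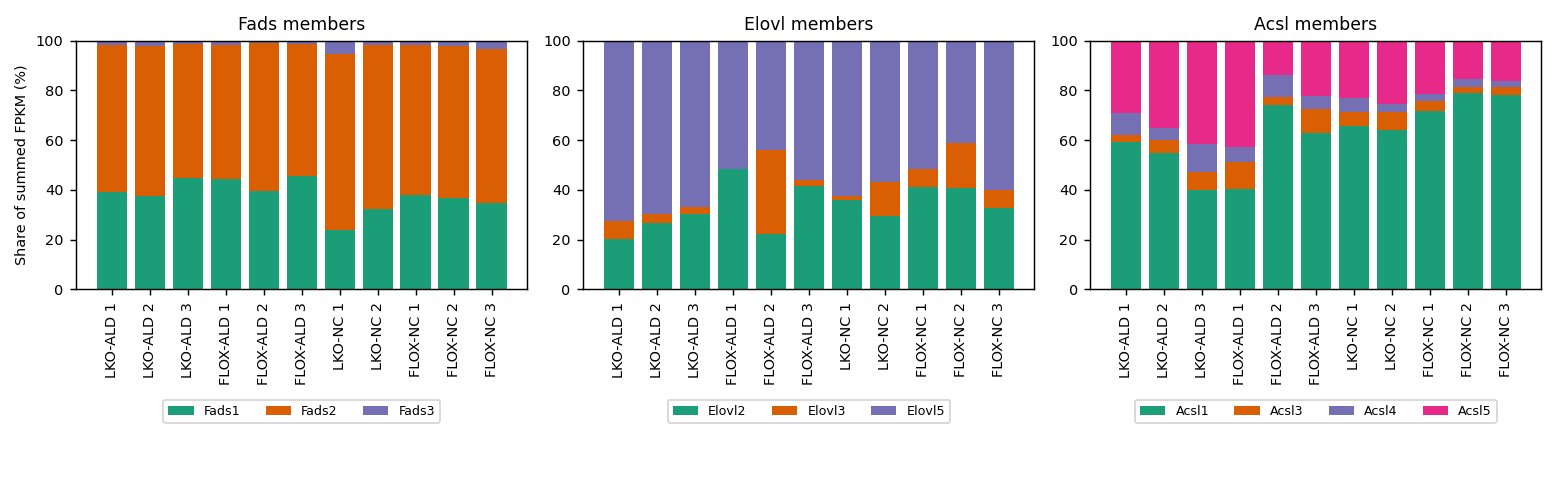
Share of summed FPKM, in percent, of each gene within the desaturases, the elongases and the synthetases, with a stacked bar per library and groups from left to right LKO-ALD, FLOX-ALD, LKO-NC and FLOX-NC. The Fads2 share is 53.1% to 60.2% on the NIAAA diet and 60.5% to 70.9% on control feeding, and the Elovl5 share is 66.8% to 72.5% in LKO-ALD and 43.8% to 55.9% in FLOX-ALD.

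Between the genotypes edgeR called no member, and DESeq2 called Elovl5 on the diet and in the average. On the NIAAA diet, Cre against floxed, 0 of 10 passed edgeR (background 0.0%), with 1 at an unadjusted p under 0.05 (Elovl5) against 8.05% of all genes, and DESeq2 called 1 (background 0.646%). On control feeding 0 of 10 passed (background 0.0105%), with 0 at an unadjusted p under 0.05 (background 6.52%) and 0 by DESeq2 (background 0.283%). In the average over feedings 0 of 10 passed (background 0.0158%), with 1 at an unadjusted p under 0.05 (background 5.93%) and 1 by DESeq2 (background 0.314%), in both cases Elovl5. In the interaction 0 of 10 passed (background 0.00526%), with 0 at an unadjusted p under 0.05 (background 9.37%) and 0 by DESeq2 (background 0.401%). The median genotype difference of the 10 was 0.02 on the diet and 0.31 on control feeding, against −0.03 and 0.00 over all genes. For Fads2 the genotype difference was 0.17 (95% interval −0.76 to 1.10) on the diet and 0.40 (−0.64 to 1.43) on control feeding. Both intervals held differences in either direction, so an absence of difference was not shown. Libraries that did not overlap between genotypes were found for 0 members on the diet, where 6.26% of all genes were lower and 6.35% higher in this way. On control feeding they were found for Acsl1 and Acsl4, which were lower in Cre mice, where 13.9% of all genes were, and for Elovl5, which was higher, where 15.1% were. Between feedings, libraries did not overlap for 4 members in Cre mice (Fads2, Fads3, Elovl2 and Acsl3), all lower, where 19.6% of all genes were, and for 3 in floxed mice (Elovl2, Elovl5 and Acsl1), where 9.96% were.

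**Figure D4:**
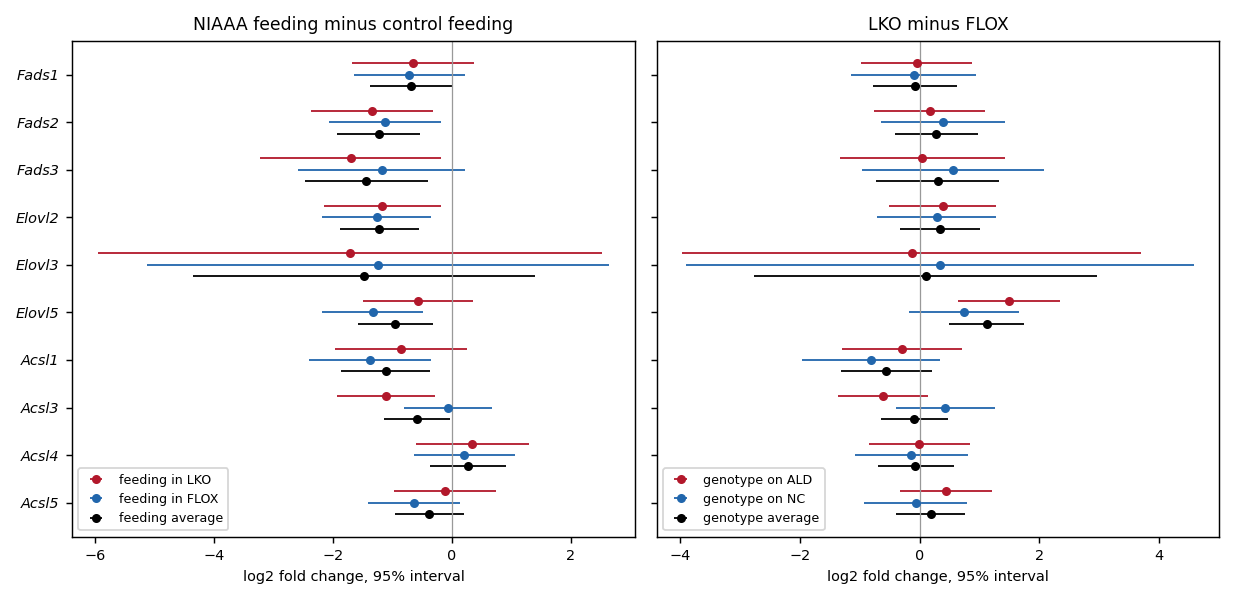
Fitted log2 fold changes of the 10 genes with their 95% intervals (edgeR), for NIAAA feeding minus control feeding on the left and for LKO minus FLOX on the right. Black marks the average of the 2 single comparisons drawn in red and blue. In the feeding average, 9 of 10 points lie below 0 and Acsl4 lies at 0.28, and on the right the interval of Elovl5 on the NIAAA diet runs from 0.65 to 2.36.

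Genes that work beside the members showed single changes on the diet, averaged over genotypes and tested over all genes with edgeR, where 4.61% of genes were called. Among 16 other genes of the elongation cycle and desaturation 1 was called, Cyb5r3, a reductase that passes electrons to the desaturases, which fell by 0.68 on the log2 scale (SE 0.175, adjusted p = 0.047). The median of these 16 was 0.07. Of 15 genes of fatty acid uptake and activation 1 rose and 1 fell. Fabp4, a fatty acid binding protein of adipocytes and macrophages, averaged 36.6 and 19.7 CPM in LKO-ALD and FLOX-ALD, against 14.8 and 9.06 CPM in LKO-NC and FLOX-NC, and rose by 1.21 (SE 0.253, adjusted p = 0.023). Fabp1, the main fatty acid binding protein of hepatocytes, averaged 3120 and 2920 CPM in LKO-ALD and FLOX-ALD, against 6160 and 6250 CPM in LKO-NC and FLOX-NC, and fell by 1.04 (SE 0.249, adjusted p = 0.0362).

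Of 10 genes of peroxisomal chain shortening, which finishes docosahexaenoic acid, 1 fell, Pex11a, a gene of peroxisome division (−0.86, SE 0.168, edgeR adjusted p = 0.0179). Of 12 genes of acyl chain placement and release, 3 fell. These were Lpcat3 itself (−1.43, SE 0.162, edgeR adjusted p = 0.0022), the acyltransferase Lpcat2 (−1.46, SE 0.299, edgeR adjusted p = 0.0209) and the phospholipase Pla2g6 (−0.92, SE 0.151, edgeR adjusted p = 0.00939). Levels of Lpcat2 were low, with means of 0.79 and 0.91 CPM in LKO-ALD and FLOX-ALD, against 3.36 and 1.64 CPM in LKO-NC and FLOX-NC. The interaction of Lpcat2 was −1.24 (SE 0.595, edgeR adjusted p = 0.546). Of 13 regulators 1 fell, Ppara (−0.90, SE 0.203, edgeR adjusted p = 0.0292). Of 12 lipogenic SREBP1 targets 1 was called, Gpam, which starts triglyceride synthesis (−1.24, SE 0.271, edgeR adjusted p = 0.0268), and 11 of the 12 were below 0, with a median of −0.92. Of 20 PPARA targets 1 fell, Pdk4 (−1.22, SE 0.318, edgeR adjusted p = 0.0493), and their median was 0.04. Pdk4 averaged 6.27 and 6.06 CPM in LKO-ALD and FLOX-ALD, against 25.4 and 8.14 CPM in LKO-NC and FLOX-NC. The interaction of Pdk4 was −1.60 (SE 0.634, edgeR adjusted p = 0.51). Of 13 genes of ferroptosis and lipid peroxide defence 0 were called, and 10 were above 0 with a median of 0.35. The most abundant of them, Ftl1 and Fth1 of the iron store ferritin, differed by 0.07 (SE 0.23) and 0.43 (SE 0.26). Of 11 genes of eicosanoid synthesis 1 rose, Ptges, the inducible prostaglandin E synthase (2.81, SE 0.56, edgeR adjusted p = 0.02), which averaged 4.38 and 3.11 CPM in LKO-ALD and FLOX-ALD, against 0.69 and 0.40 CPM in LKO-NC and FLOX-NC.

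**Figure D5:**
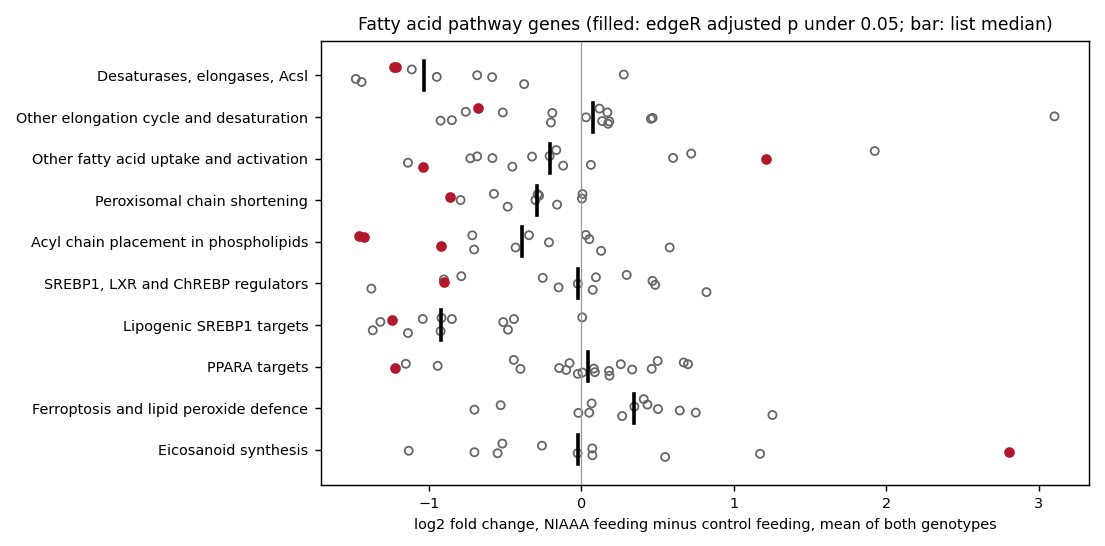
Log2 fold change of each tested gene of 10 lists, NIAAA feeding minus control feeding, averaged over both genotypes. Filled points have an edgeR adjusted p under 0.05 over all genes, and the black bar is the list's median, which is −1.03 for the desaturases, elongases and Acsl genes and −0.92 for the lipogenic SREBP1 targets.

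Among markers of other liver cells, those of B and plasma cells and of Kupffer cells held most of the calls between feedings. Of 11 B and plasma cell markers 5 fell on average, and their sum was 4.93 to 7.44 CPM in LKO-ALD and 8.02 to 11.9 CPM in FLOX-ALD, against 28.5 and 41.3 CPM in LKO-NC and 22.3 to 32.2 CPM in FLOX-NC. Ighm fell by 2.37 (SE 0.282, edgeR adjusted p = 0.00249). Of 13 Kupffer cell and macrophage markers 3 fell, and their sum was 89.2 to 210.5 CPM in LKO-ALD and 167 to 413 CPM in FLOX-ALD, against 305 and 515 CPM in LKO-NC and 174 to 283 CPM in FLOX-NC. Clec4f, a Kupffer cell lectin, fell by 1.08 (SE 0.262, edgeR adjusted p = 0.0374) in the average, with −1.94 (SE 0.389, adjusted p = 0.0428) in Cre mice and −0.23 (SE 0.351, adjusted p = 0.847) in floxed mice. The interaction of Clec4f was −1.71 (SE 0.523, edgeR adjusted p = 0.498). All 13 Kupffer cell and macrophage markers were below 0 in Cre mice, with a median of −1.47, and 7 of 13 in floxed mice, with a median of −0.04. Of 11 stellate markers 1 fell (Col3a1), of 10 sinusoidal endothelial markers 1 rose (Lyve1), and of 9 hepatocyte, 9 neutrophil and 8 cholangiocyte markers 0 were called. The part of these markers in the values of the 10 genes was not tested.

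The genes whose level ran most like a member were searched among 10421 genes over the 11 libraries. Groups, depth and library quality are shared by all these profiles, so the correlations of log2 CPM are descriptions. Fads2 ran most like H2-T23 (r = 0.915, Spearman rho 0.945) and Fads3 most like H2-K1 (r = 0.927, rho 0.955), both genes of the major histocompatibility complex. Elovl2 ran with Anxa4 (r = 0.968, rho 0.891) and Mad2l1 (r = 0.932, rho 0.873). Fads1 and Acsl5 shared Erg28 (r = 0.939 with each) and Hnmt (r = 0.933 and 0.944) among their 3 most alike genes. Acsl1 ran with Dhrs3 (r = 0.979, rho 0.955) and Elovl5 with Sft2d1 (r = 0.938, rho 0.927). Elovl3 ran with Mup14 (r = 0.947) and Mup16 (r = 0.94), major urinary protein genes whose near-identical copies make their counts uncertain, and Acsl4 with Faf1 (r = 0.932, rho 0.845).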

How the data were processed

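The data were 11 libraries of polyA RNA from mouse liver. LKO-NC replicate 3 is not analysed here. Per the labels' protocols, KAPA stranded and SMARTER mRNA kits were used. Per the submitters' processing notes, the tools were HISAT2, StringTie, cutadapt, FastQC and edgeR on mm10. The authors deposited estimated counts per gene and transcript, which were whole numbers, and FPKM (scaled to transcript length and library size). The strand setting of counting is not stated, which leaves overlapping genes uncertain. Columns of no labelled sample numbered 0.

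Gene counts were filtered (filterByExpr, minimum count 10, minimum total 15), scaled by TMM and fitted with the robust quasi-likelihood model of edgeR 4.0.16 in R 4.3.3, with 1 mean per group over 11 libraries and 7 residual degrees of freedom. Benjamini-Hochberg adjustment ran over 19014 genes, and called means an adjusted p under 0.05. Standard errors were derived from the fold change and its F statistic. Averages weigh both genotypes, or both feedings, equally. Alternatives were RLE scaling, no filter, DESeq2 1.42.0, limma 3.58.1 on log2(FPKM + 0.1), the title number as a block, and each library left out.

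Written designs had assumed counts of 12 libraries, and the same test was used on the estimated counts. The members and lists were chosen with earlier results of these data known. Named genes were all members and Lpcat3, up to 3 higher and 3 lower called genes of each list (otherwise up to 2 of highest mean CPM), and for each member up to 3 genes of highest correlation, of which some are not reported here. Motif letters were sought in RefSeq promoter windows of 250 bases. Bulk precision is set by the spread between libraries.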

Additional observations from a re-analysis of the deposited data

How the results depend on the processing

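The 2 members called lower in the feeding average were the result most open to the settings. That count was 2 with RLE scaling, 1 without a filter on low counts (Elovl2), 3 with limma on log2(FPKM + 0.1) (Elovl2, Fads2 and Fads3), 5 with DESeq2 and 1 with the title number as a replicate block (Elovl2). Without single libraries of the groups with 3 libraries it ran from 0 to 4. It was 4 without FLOX-ALD replicate 1 (Elovl2, Fads1, Fads2 and Fads3). It was 2 without FLOX-ALD replicate 2 (Elovl2 and Acsl1, with Fads2 lost) and 2 without LKO-ALD replicate 2 (Elovl2 and Fads2). Otherwise it was 0 in these fits. DESeq2 called 1 member each for feeding in Cre mice, feeding in floxed mice, genotype on the NIAAA diet and the genotype average, and no other setting called a member in those comparisons. In the feeding average, the differences of all members except Elovl3 and Acsl4 kept their direction in every fit.

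Over all genes, counts of calls moved much more. For feeding in Cre mice, feeding in floxed mice and the feeding average they were 182, 42 and 877, against 1470, 595 and 2199 with DESeq2, 404, 128 and 937 without the filter, and 7, 12 and 519 with the replicate block. Without single libraries they lay between 6 and 473, between 2 and 146 and between 175 and 1448. For genotype on the NIAAA diet, genotype on control feeding, the interaction and the genotype average they were 0, 2, 1 and 3. DESeq2 gave 116, 56, 72 and 64, the fit without the filter gave 3, 7, 5 and 13, and limma on FPKM gave 0, 0, 0 and 2. Without single libraries they lay between 0 and 6, 1 and 21, 0 and 8, and 0 and 8, and the replicate block gave 0 for the interaction.

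The numbers in the titles do not state a pairing, so the main fit had no block. Samples that share a title number did not deviate together (correlations from −0.05 to 0.078 over 5 pairs). With the block, interactions changed sign for Elovl2 (−0.16) and Elovl3 (2.16). On FPKM, signs changed for genotype on the NIAAA diet in Fads1 (0.15), Elovl3 (1.85) and Acsl4 (0.17), for genotype on control feeding in Elovl3 (−0.52), for the interaction in Elovl3 (2.37) and for the genotype average in Fads1 (0.026) and Acsl4 (0.044). Without the filter Acsl4 was at 0.002 for genotype on the diet. None of these differences passed a test in any setting, and the cause was not tested.

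Single libraries turned the sign of further differences that did not pass. For feeding in Cre mice, Elovl3 ran from −2.62 to 1.24 and Acsl5 from −0.54 to 0.48. For feeding in floxed mice, Acsl3 ran from −0.28 to 0.17 and Acsl4 from −0.49 to 0.55. For the feeding average, Elovl3 ran from −3.18 to 0.002 and Acsl4 from −0.079 to 0.45. For genotype on the NIAAA diet, Fads1 ran from −0.38 to 0.66, Fads2 from −0.20 to 0.76, Fads3 from −0.34 to 1.13, Elovl2 from −0.026 to 0.98, Elovl3 from −0.74 to 3.26, Acsl1 from −0.59 to 0.35 and Acsl4 from −0.33 to 0.69. For genotype on control feeding, Fads1 ran from −0.59 to 0.27, Elovl3 from −2.61 to 1.24, Acsl3 from −0.20 to 0.87 and Acsl5 from −0.65 to 0.35. For the genotype average, Fads1 ran from −0.33 to 0.28, Elovl3 from −1.37 to 1.80, Acsl3 from −0.41 to 0.13, Acsl4 from −0.23 to 0.28 and Acsl5 from −0.11 to 0.41. For the interaction, Fads1 ran from −0.31 to 0.76, Fads2 from −0.59 to 0.36, Fads3 from −0.94 to 0.55, Elovl2 from −0.29 to 0.69, Elovl3 from −1.39 to 2.92 and Acsl4 from −0.20 to 0.81. Counts over the gene lists besides the members were not recomputed under these settings. With 2 or 3 libraries a group and a common biological coefficient of variation of 42.2%, most 95% intervals of the members span more than 1 on the log2 scale.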
